A study of Mus musculus with 72 samples.

Results

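The step from 2 Gy to 4 Gy in the lung of whole body irradiated mice was examined on 6 of the 72 arrays of the series. They are the mRNA arrays labelled as lung, 48 h after 2 Gy (mice 3, 13 and 23) and lung, 48 h after 4 Gy (mice 4, 14 and 24), 1 mouse on each array, with no filter on genes other than the one on dim probes described below. All animals were female C57BL/6 J mice, 6 to 8 weeks old at irradiation, which received 1 surface dose of X-rays over the whole body and were not otherwise treated, so the labels set the groups apart by dose alone. By the sample labels RNA came from powdered lung, although the series' general description speaks of hearts, and the paper's methods were written for the liver of these mice. Lung is a mixture of epithelial, endothelial, stromal and blood-derived cells. The other lung mRNA arrays hold 3 mice at each of 0 (sham), 1, 8 and 12 Gy. Liver arrays with the same sample numbers exist at every dose. They were taken to come from the same mice, which the labels do not state. Values below are log2 intensities of single-colour oligonucleotide arrays after background correction and quantile normalization over the 18 lung arrays, and a difference of 1 is a doubling.

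Ionising radiation breaks DNA and activates the transcription factor p53, which switches on genes for cell cycle arrest, feedback on p53 itself and cell death. Lymphocytes are among the most radiosensitive cells of the body, and B cells are known to be lost from blood and tissues within days of whole body exposure, with red cell precursors in the marrow lost as well. Glucocorticoids, the adrenal stress hormones, act through a nuclear receptor that induces a well-known set of genes in most tissues, the lung included, and are also toxic to immature lymphocytes.

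All 6 arrays lay on 1 slide, so the slide did not differ between the doses. The 2 Gy arrays and the array of 4 Gy mouse 4 were in the first row of that slide and those of 4 Gy mice 14 and 24 in the second row, so position and dose can be told apart only through mouse 4. Between 59.97% and 62.87% of spots were well above background on the 6 arrays, and no spot was saturated. Correlations with the other mice of the same dose averaged 0.987 to 0.989 at 2 Gy and 0.978 to 0.981 at 4 Gy. Markers of lung were bright on every array, and those of liver and heart muscle were detected too. Alb, the serum albumin of hepatocytes, read 12.59, 11.36 and 11.30 at 2 Gy and 8.04, 8.34 and 14.79 at 4 Gy, highest in 4 Gy mouse 24. Nppa, the atrial natriuretic peptide, read 12.69 to 13.01 at 2 Gy and 16.46, 13.14 and 12.71 at 4 Gy, highest in 4 Gy mouse 4. The doses overlapped for both markers, and their part in the results was not tested.

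The step was small beside the spread between mice, and no single probe passed the threshold, while several gene lists leaned one way. Members and lists were chosen with earlier results of these data known, so this leaning is a description and was not tested. At 4 Gy the glucocorticoid responsive and p53 target genes were higher, and B cell, T cell, NK cell, MHC class II and haemoglobin genes were lower, while genes of alveolar, airway, vessel and connective tissue cells lay close to 0. Of 43976 probes tested with limma, 0 (0%) passed both an absolute log2 fold change above 1 and a Benjamini-Hochberg adjusted p below 0.05, and 0 passed on adjusted p alone. The smallest adjusted p was 0.0579, shared by 2 probes. At an unadjusted p below 0.05 there were 2257 probes (5.13%), of which 1210 were higher and 1047 lower at 4 Gy, and 298 of these differed by more than 1 on the log2 scale. The median standard error was 0.232, so that the unadjusted 95% interval of a typical probe reached 0.493 to either side. The count was above 0 under some other settings: 10 probes with lung and liver arrays fitted together, 4 with slide as a term, and 21 when 4 Gy mouse 4 was left out.

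Only probes with a gene symbol and without overlap between the doses were ranked by p, so the separation of these genes was a condition of choice. Those with the smallest p that were higher at 4 Gy belonged to Fkbp5, Mybl1, Eda2r, Gdf15, 6720468P15Rik and Pmaip1. Fkbp5, a co-chaperone of the glucocorticoid receptor and a classical target of it, read 5.50, 5.46 and 6.04 at 2 Gy and 7.21, 8.21 and 7.44 at 4 Gy. Every 4 Gy mouse thus lay at least 1 log2 unit above every 2 Gy mouse, with mouse 14 highest. The probe was well above background on 2 of the 3 arrays at 2 Gy and on all 3 at 4 Gy. The change was 1.95 ± 0.26 (SE, n = 3 and 3; adjusted p = 0.0579, limma). Under other settings this change ranged from 1.3 to 2.73. A second, brighter Fkbp5 probe gave 0.81 ± 0.35 with overlapping doses (adjusted p = 0.93, limma). The size of the Fkbp5 step thus depended on the probe and the setting.

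Mybl1, a transcription factor of the MYB family, read 7.90, 8.08 and 7.94 at 2 Gy and 8.92, 9.38 and 8.94 at 4 Gy. The 3 mice of each dose were close together, and the change was 1.1 ± 0.15 (SE, n = 3 and 3; adjusted p = 0.0579, limma). Fkbp5 and Mybl1 were each called under 6 of 21 alternative settings. The setting with the first slide row alone was among the 21 and had no test, so it could call no gene. The non-coding transcript 6720468P15Rik was not well above background on any 2 Gy array and was so on 1 of the 3 arrays at 4 Gy. Its log2 change was 1.14 ± 0.21 (adjusted p = 0.23, limma) and ranged from 0.374 to 1.72 under other settings. With values this near background the size of the change is uncertain.

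The p53 targets of arrest and feedback were higher at 4 Gy throughout. All 18 tested genes of the list were above 0, 6 of them at an unadjusted p below 0.05 against 3.12% of all 19875 genes in that direction, and 7 without overlap between the doses against 10.9% of all genes. The median change was 0.36, beside 0.04 over all genes, and the range was 0.12 to 1.02. None of the 18 genes passed the adjusted threshold. The mean level of the list was 0.378 to 0.465 above the 2 Gy mean in the 3 mice at 4 Gy, and no 2 Gy mouse was more than 0.06 above it.

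Gdf15, a secreted stress cytokine, led the list with 9.55, 9.85 and 10.01 at 2 Gy and 10.72, 10.83 and 10.92 at 4 Gy. All the 4 Gy mice were above all the 2 Gy mice, by 1.02 ± 0.17 in the mean (adjusted p = 0.16, limma). Cdkn1a, which encodes the p21 inhibitor of cyclin-dependent kinases, read 13.54, 13.39 and 13.43 at 2 Gy and 14.09, 14.13 and 14.01 at 4 Gy. The doses were again separate, by 0.62 ± 0.20 (adjusted p = 0.80, limma). Ccng1, the p53-induced cyclin G1, read 12.78, 13.19 and 13.01 at 2 Gy and 13.37, 13.61 and 13.68 at 4 Gy, a change of 0.56 ± 0.22 without overlap (adjusted p = 0.91, limma). Psrc1, a spindle protein, changed by 0.55 ± 0.17, also without overlap.

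For Mdm2, the ubiquitin ligase that degrades p53, the doses overlapped. Its values were 13.25, 12.91 and 13.19 at 2 Gy and 13.24, 13.39 and 13.26 at 4 Gy, a change of 0.18 ± 0.14. Phlda3, an inhibitor of AKT signalling, read 13.82, 13.45 and 13.56 at 2 Gy and 13.78, 13.62 and 13.81 at 4 Gy, a change of 0.13 ± 0.16. The 95% intervals ran from -0.12 to 0.47 for Mdm2 and from -0.22 to 0.47 for Phlda3.

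Among the p53 targets of cell death, 11 of 14 tested genes were above 0 and the median change was 0.19. At an unadjusted p below 0.05, 3 were higher and 1 was lower, against 3.12% and 2.35% of all genes. Eda2r, a death receptor of the TNF receptor family, read 8.82, 8.84 and 8.72 at 2 Gy and 9.66, 9.94 and 9.92 at 4 Gy. That was the largest step of the 14, 1.05 ± 0.18 without overlap (adjusted p = 0.16, limma), while its other 2 probes gave 0.88 and 0.38 with overlapping doses. Pmaip1, which encodes the BH3-only protein NOXA, read 11.48, 11.44 and 11.52 at 2 Gy and 12.19, 12.40 and 12.34 at 4 Gy. Both doses were tight, and the change was 0.83 ± 0.15 (adjusted p = 0.23, limma). Tnfrsf18, a receptor of activated and regulatory T cells, was lower at -0.58 ± 0.18, and Casp1 and Trp53i11 were the other members below 0. Bax, Bbc3 and Fas, central death effectors, gave 0.27 ± 0.18, 0.07 ± 0.14 and 0.28 ± 0.21.

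**Figure D1:**
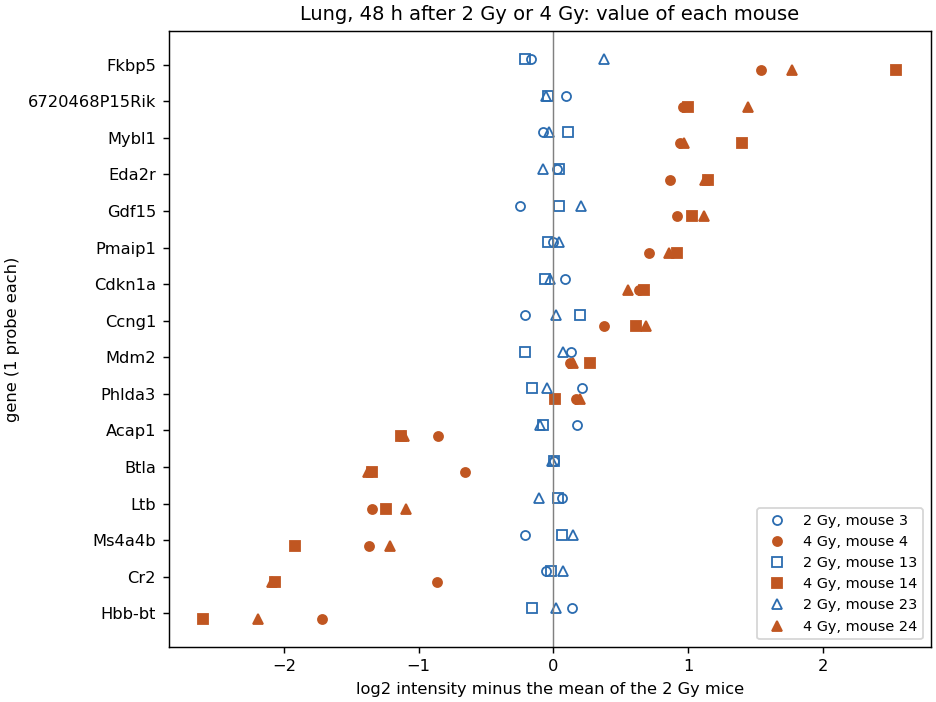
Log2 intensity of each mouse minus the mean of the 2 Gy mice (horizontal axis) for 16 genes, 1 probe each (vertical axis), with open blue symbols for 2 Gy and filled orange symbols for 4 Gy. The 4 Gy mice sit to the right of the 2 Gy mice from Fkbp5 to Ccng1, among them for Mdm2 and Phlda3, and to the left from Acap1 to Hbb-bt. All genes but Cdkn1a, Ccng1, Mdm2 and Phlda3 were chosen by smallest p among probes without overlap.

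Because the p53 targets of arrest and feedback all lay above 0, promoters of these and of other lists were searched for the p53 response element. It consists of a pair of decamers with at most 13 bases between them, and 1 letter off the consensus was allowed. RefSeq windows of GRCm38.p6, from 250 bases before to 50 bases after each annotated start, were given for 15 of the 18 arrest and feedback genes, and 3 of these 15 held a match, against 0.718% of 27025 genes. The matches lay in Ccng1, Cdkn1a and Gtse1, each with the decamers directly adjoining and 1 letter off. None of 11 windowed genes of cell death, 12 glucocorticoid responsive genes, 13 B cell genes or 13 T cell genes held one. The matched stretches are given 5′ to 3′ on the strand of the gene, with the element in capitals and 5 flanking bases on either side.
Ccng1, minus strand, chr11:40755457-40755486: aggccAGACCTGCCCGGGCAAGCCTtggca
Cdkn1a, plus strand, chr17:29090923-29090952: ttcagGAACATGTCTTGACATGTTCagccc
Gtse1, plus strand, chr15:85859940-85859969: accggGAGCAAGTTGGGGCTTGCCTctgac
The element of Cdkn1a ended 31 bases and that of Ccng1 175 bases before the annotated start. Beside the Cdkn1a and Ccng1 steps above, Gtse1, a regulator of p53 in G2 phase, was well above background on 1 of the 6 arrays and its doses overlapped. A match of letters is a description and not a measured binding site. The genes were listed as known p53 targets, so their higher share of matches was to be anticipated and is not a result of the step.

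The glucocorticoid responsive genes gave the largest upward shift of the 31 lists. All 15 tested genes were above 0. At an unadjusted p below 0.05 there were 10, against 3.12% of all genes in that direction. Without overlap between the doses there were 8, against 10.9% of all genes. The median change was 0.70, the range 0.09 to 0.95, and no member passed the adjusted threshold. The mean level of the list was 0.435 to 0.717 above the 2 Gy mean at 4 Gy, whereas the highest 2 Gy mouse was 0.22 above it.

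Tsc22d3, which encodes the glucocorticoid-induced leucine zipper, read 14.54, 14.72 and 15.13 at 2 Gy and 15.94, 15.69 and 15.60 at 4 Gy. The doses did not overlap and the change was 0.95 ± 0.21 (adjusted p = 0.38, limma). Errfi1, a feedback inhibitor of the EGF receptor, read 13.99, 14.12 and 14.46 at 2 Gy and 14.96 and 15.01 in 4 Gy mice 4 and 14. The spot of mouse 24 was an outlier on its array and was dropped, so the change of 0.80 ± 0.18 rests on 5 mice. Sult1a1, a sulfotransferase, read 13.93, 14.20 and 14.42 at 2 Gy and 14.93, 14.86 and 14.89 at 4 Gy, a change of 0.71 ± 0.17 without overlap. Further members without overlap were Sgk1, a kinase that regulates sodium channels (0.67 ± 0.17), Angptl4, an inhibitor of lipoprotein lipase (0.93 ± 0.27), Ddit4, an inhibitor of mTORC1 (0.70 ± 0.23), and Hif3a (0.94 ± 0.35). The members nearest to 0 were Lcn2, which encodes lipocalin 2 (0.09 ± 0.15), and Zbtb16 (0.26 ± 0.39).

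Tat, which encodes the liver enzyme tyrosine aminotransferase and is a textbook glucocorticoid target, was held in the hepatocyte list. It read 8.30, 8.36 and 8.84 at 2 Gy and 9.64, 9.58 and 10.83 at 4 Gy, a change of 1.51 ± 0.33 without overlap (adjusted p = 0.37, limma). The part of hepatocyte RNA in this value was not tested. Dusp1, a stress-inducible phosphatase, and Klf4 were higher without overlap (0.64 ± 0.25 and 0.40 ± 0.15), but the list of immediate early and stress genes that holds them had a median of 0.02.

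Among probes with a gene symbol and without overlap, the genes lower at 4 Gy with the smallest p were Ms4a4b, Ltb, Hbb-bt, Acap1, Btla and Cr2. In RNA of whole lung, fewer cells of a type and less RNA per cell cannot be told apart. Ms4a4b, a membrane protein of T cells, read 10.98, 11.26 and 11.34 at 2 Gy and 9.83, 9.27 and 9.98 at 4 Gy. Each 4 Gy mouse was below each 2 Gy mouse, and the change was -1.5 ± 0.24 (adjusted p = 0.12, limma). Ltb, the lymphotoxin beta made by lymphocytes, read 10.69, 10.66 and 10.52 at 2 Gy and 9.28, 9.38 and 9.53 at 4 Gy. Both doses were tight and separate, at -1.23 ± 0.20 (adjusted p = 0.12, limma). Acap1, a regulator of ARF6 traffic, and Btla, an inhibitory receptor of lymphocytes, gave -1.03 ± 0.18 and -1.13 ± 0.21.

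B cell genes showed the largest downward median of the 31 lists. Of 18 tested genes 16 were below 0, 12 at an unadjusted p below 0.05 against 2.35% of all genes in that direction, and 11 lower without overlap against 5.36% of all genes. The median change was -0.90. The mean level of the list lay between -0.87 and -0.50 relative to the 2 Gy mean in the 4 Gy mice, with mouse 4 the least low, and between -0.05 and 0.09 in the 2 Gy mice.

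Fcmr, the receptor for IgM, read 9.99, 9.89 and 9.79 at 2 Gy and 8.48, 8.4 and 8.25 at 4 Gy. Every 4 Gy mouse was below the 2 Gy mice, and the change was -1.51 ± 0.30 (adjusted p = 0.27, limma). Fcer2a, the low-affinity receptor for IgE also called CD23, read 7.98, 8.01 and 7.92 at 2 Gy and 6.75, 6.30 and 6.08 at 4 Gy, a change of -1.59 ± 0.35 (adjusted p = 0.38, limma). Cr2, the complement receptor of mature B cells, was lower without overlap on all of its 3 probes (-1.68 to -1.02). Ralgps2 and Ebf1 were the members above 0, at 0.41 ± 0.16 and 0.40 ± 0.23, and Pax5, a transcription factor that fixes B cell identity, gave -0.05 ± 0.45.

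T cell genes had a median change of -0.74, with 19 of 20 tested genes below 0. Of these, 11 had an unadjusted p below 0.05, against 2.35% of all genes, and 14 did not overlap, against 5.36%. Ccr7, the homing receptor of naive lymphocytes, read 10.62, 10.63 and 10.59 at 2 Gy and 9.53, 9.12 and 9.65 at 4 Gy. The change was -1.18 ± 0.31 with the doses wholly separate (adjusted p = 0.63, limma). Cd8b1, a chain of the CD8 co-receptor, read 9.07, 9.65 and 9.49 at 2 Gy and 7.10, 7.61 and 7.83 at 4 Gy, a change of -1.89 ± 0.57 (adjusted p = 0.77, limma). Cd3d, a chain of the T cell receptor complex, read 10.47, 10.94 and 10.85 at 2 Gy and 9.65, 9.67 and 9.77 at 4 Gy, a change of -1.06 ± 0.33. Cd4, which macrophages and dendritic cells can also express, was the member above 0 (0.10 ± 0.34), and Tcf7 lay at -0.05 ± 0.38.

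All 15 NK and cytotoxic genes were below 0, with a median of -0.60. Of these, 7 had an unadjusted p below 0.05, against 2.35% of all genes, and 7 did not overlap, against 5.36%. Klrd1, the CD94 receptor, read 10.07, 10.77 and 10.61 at 2 Gy and 9.66, 9.28 and 9.98 at 4 Gy, a change of -0.85 ± 0.22. Tbx21, the transcription factor T-bet, read 8.29, 8.61 and 8.37 at 2 Gy and 7.66 in all the 4 Gy mice, a change of -0.76 ± 0.22. Eomes, its relative, gave -0.68 ± 0.18, but 0.04 ± 0.46 with overlapping doses on a dimmer probe. Prf1, the pore-forming perforin, gave -0.10 ± 0.31.

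All 10 MHC class II genes were below 0 as well, with a median of -0.49. Of these, 6 had an unadjusted p below 0.05, against 2.35% of all genes, and 8 did not overlap, against 5.36%. The genes with the largest change were H2-Oa and H2-Ob, which form the H2-O modulator of peptide loading and are most abundant in B cells. H2-Oa read 9.19, 9.34 and 9.09 at 2 Gy and 8.29, 8.12 and 8.15 at 4 Gy, a change of -1.02 ± 0.20 (adjusted p = 0.25, limma). H2-Ob gave -0.97 ± 0.18 without overlap (adjusted p = 0.23, limma). The invariant chain Cd74 and the classical chains H2-Ab1 and H2-Eb1, which macrophages and dendritic cells also express strongly, gave -0.17 ± 0.16, -0.31 ± 0.20 and -0.29 ± 0.13.

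Among the genes of monocytes and dendritic cells the median was -0.09. At an unadjusted p below 0.05, 4 of 15 were lower, against 2.35% of all genes. Flt3, the growth factor receptor of dendritic cell precursors, read 7.39, 7.13 and 7.10 at 2 Gy and 6.63, 6.28 and 6.21 at 4 Gy, a change of -0.84 ± 0.20 without overlap. Neutrophil genes had a median of 0.03 and were spread unevenly. Camp, a granule peptide made by precursors in the marrow, read 8.34, 8.98 and 7.38 at 2 Gy and 6.27, 5.91 and 6.26 at 4 Gy, a change of -2.09 ± 0.74 without overlap (adjusted p = 0.88, limma). S100a8 and S100a9, the abundant proteins of mature neutrophils, gave -0.23 ± 0.31 and 0.14 ± 0.29.

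In the erythroid list, 6 of 17 tested genes were lower at an unadjusted p below 0.05, against 2.35% of all genes, and none was higher. These 6 were Hbb-bt, Hbb-b1, Hbb-b2, Hba-a1, Hba-a2 and Alas2, the genes of the globin chains and of the first enzyme of haem synthesis in red cells. Hbb-bt read 13.28, 12.98 and 13.16 at 2 Gy and 11.42, 10.54 and 10.95 at 4 Gy. With -2.17 ± 0.37 this was the largest change among the 12 genes chosen by smallest p without overlap (adjusted p = 0.16, limma). Alas2 read 9.47, 8.83 and 9.10 at 2 Gy and 7.83, 6.59 and 7.16 at 4 Gy, a change of -1.94 ± 0.43 (adjusted p = 0.38, limma). The globin genes are near-identical copies, and their probes can share targets. The other 11 members ranged from -0.51 to 0.59, and 7 of the 17 were not well above background on all 6 arrays.

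Genes of dividing cells differed less. Of 28 mitotic genes 24 were below 0 with a median of -0.21. At an unadjusted p below 0.05, 1 of the 28 was lower, against 2.35% of all genes. It was Ube2c, a ubiquitin-conjugating enzyme of the anaphase (-0.80 ± 0.36). Mki67, the common proliferation marker, gave -0.35 ± 0.42. The 25 genes of DNA replication had a median of -0.12, none with an unadjusted p below 0.05. The 20 genes of DNA damage and repair had a median of -0.04. Atr was the 1 gene past that limit, at -0.72 ± 0.24, against 2.35% of all genes in that direction.

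**Figure D2:**
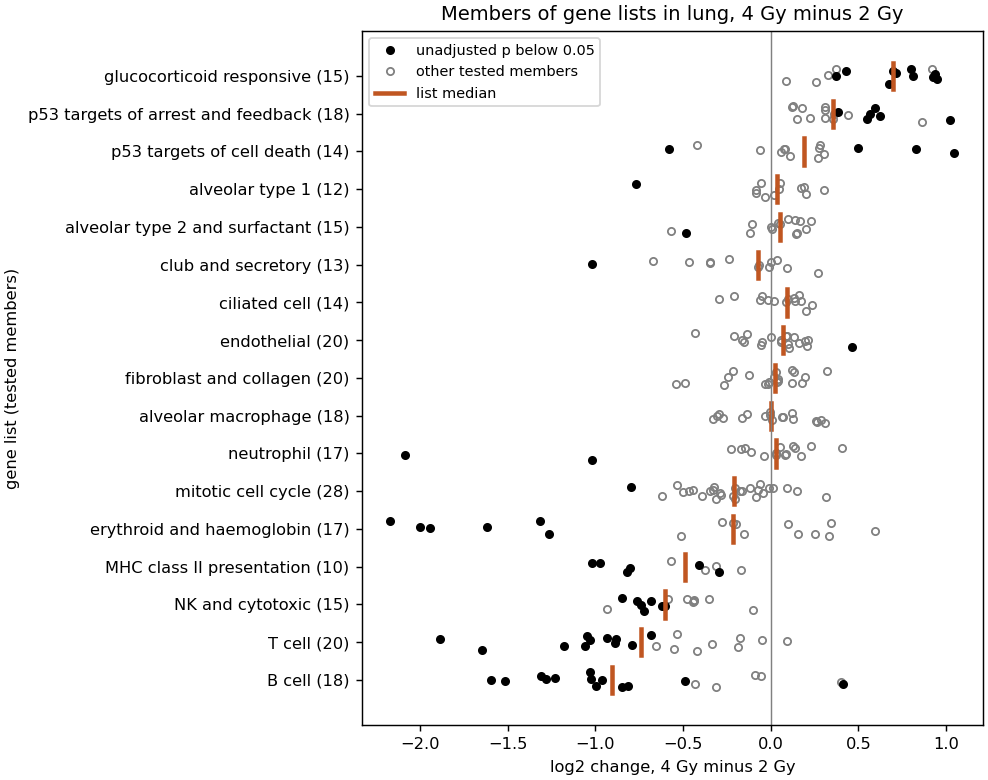
Log2 change from 2 Gy to 4 Gy (horizontal axis) of each tested member of 17 gene lists (vertical axis, number of members in brackets), with filled points at an unadjusted p below 0.05 and an orange bar at the list median. The medians run from 0.70 for glucocorticoid responsive genes to -0.90 for B cell genes, and those of alveolar, ciliated, endothelial and fibroblast genes lie within 0.1 of 0.

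Genes of the resident lung tissue differed little. For Scgb1a1 and Sftpc, which read 18.63 and 18.45 in every mouse of both doses, a step could not show. Quantile normalization gives probes of equal rank the same value on every array. The medians were 0.06 for alveolar type 2 cells and surfactant, 0.04 for alveolar type 1 cells, -0.07 for club and secretory cells, 0.09 for ciliated cells, 0.07 for endothelium, 0.02 for fibroblasts and collagen, and 0.00 for alveolar macrophages. Over these 7 lists 1 gene was higher at an unadjusted p below 0.05, of 20 endothelial genes, against 3.12% of all genes. It was Ednrb, an endothelin receptor of capillary endothelium (0.46 ± 0.17). At that limit 3 were lower, 1 each of 12 alveolar type 1, 15 alveolar type 2 and 13 club genes, against 2.35% of all genes. They were Akap5 (-0.77 ± 0.33), Lpcat1, a phospholipid enzyme of surfactant (-0.48 ± 0.19), and Ltf (-1.02 ± 0.34). Ltf encodes lactoferrin and is held in the neutrophil list too. Dimmer probes gave 0.38 and -0.10 for Ednrb and -0.09 for Akap5, all with overlapping doses. Interferon response genes had a median of -0.07, although Cxcl10, a chemokine for activated T cells, read 8.95, 9.20 and 8.79 at 2 Gy and 7.95, 7.17 and 8.37 at 4 Gy (-1.15 ± 0.28, adjusted p = 0.51, limma). Medians of the remaining lists were -0.20 for chemokines, 0.17 for the circadian clock, -0.03 for NRF2 targets, 0.08 for heat shock and ER chaperones, -0.29 for platelets, -0.23 for mast cells and basophils, 0.10 for fat cells, 0.28 for smooth and heart muscle and -0.18 for hepatocytes. The last 3 lists had the widest differences between mice of 1 dose.

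The doses to either side of the step answer whether it fits a wider dose course, from mice that the step did not use. In the mean of 8 and 12 Gy against the mean of 0 and 1 Gy (6 mice against 6), 1512 of 43979 probes were called, of which 433 rose and 1079 fell. The split depended on the scaling, with 701 higher and 911 lower after scaling to the 75th percentile. By gene, 1.16% rose and 2.39% fell. The 0 and 1 Gy arrays were on 1 slide and the 8 and 12 Gy arrays on 2 others, so dose and slide cannot be told apart in this contrast. Without the slide that was scanned on another day, 860 probes were called. That slide held all the 12 Gy arrays and 8 Gy mouse 25. The 860 therefore come from another contrast, 8 Gy mice 5 and 15 against 0 and 1 Gy. Of the 433 probes that rose, 91.5% were also above 0 between 2 and 4 Gy, beside 53.7% of all probes, and their median step was 0.32. Of the 1079 that fell, 84.4% were below 0, beside 46.3% of all probes, and their median step was -0.42.

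By list, 13 of 15 glucocorticoid responsive and 11 of 18 arrest and feedback genes rose over the outer doses and none fell, with median changes of 1.52 and 1.21. Of the cell death targets 5 of 14 rose and none fell. In the other direction 15 of 18 B cell, 16 of 20 T cell, 14 of 15 NK and cytotoxic, 6 of 10 MHC class II and 8 of 17 erythroid genes fell and none rose. Median changes were -3.02 for B cell and -2.14 for T cell genes. Mitotic genes, with 1 member past the unadjusted limit between 2 and 4 Gy, had 11 of 28 that fell. Among single genes, Gdf15 rose by 3.52, Eda2r by 3.17, Cdkn1a by 2.46, Phlda3 by 1.39 and Mdm2 by 1.21, and Hbb-bt fell by 5.86 and Fcmr by 5.19 (limma, all called). Some genes had opposite signs in the 2 contrasts, among them Timp1, an inhibitor of metalloproteinases, at 0.90 over the outer doses and -0.49 between 2 and 4 Gy, and 6720468P15Rik at -0.63 over the outer doses; neither was called.

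**Figure D3:**
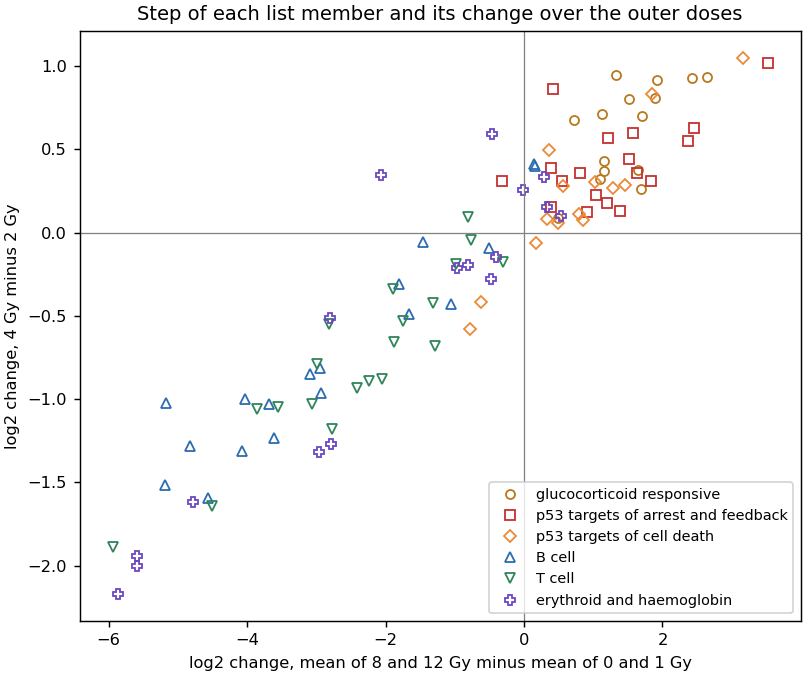
Log2 change between 2 and 4 Gy (vertical axis) against log2 change between the mean of 0 and 1 Gy and the mean of 8 and 12 Gy (horizontal axis) for tested members of 6 gene lists, from separate mice. Most p53 and glucocorticoid responsive genes lie above 0 on both axes and most lymphocyte and globin genes below 0 on both, with Hbb-bt and Cd8b1 at the lower left.

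The levels of the lists placed the step within this course. Relative to the 2 Gy mean, the arrest and feedback genes averaged -0.59, -0.26, 0.00, 0.42, 0.67 and 0.93 from the sham group upwards through the 6 doses, and no neighbouring doses overlapped. The glucocorticoid responsive genes averaged -0.21, -0.38, 0.00, 0.58, 1.12 and 1.30, with overlap between 0 and 1 Gy, between 0 and 2 Gy and between 8 and 12 Gy. B cell genes averaged 1.58, 0.70, 0.00, -0.73, -1.61 and -1.71, and T cell genes 1.27, 0.40, 0.00, -0.74, -1.44 and -1.61, with overlap between 8 and 12 Gy in both. The sham mean of the T cell genes rested on mouse 21, at 2.28 beside 0.63 and 0.91, and was 0.77 without it. NK and cytotoxic genes stood at 0.18, 0.16 and 0.00 up to 2 Gy with overlapping mice and at -0.58, -1.19 and -1.60 from 4 Gy on, with overlap between 8 and 12 Gy. Erythroid genes averaged 1.57, 0.86, 0.00, -0.58, -0.75 and -0.87, with overlap between 0 and 1 Gy, between 4 and 8 Gy and between 8 and 12 Gy.

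**Figure D4:**
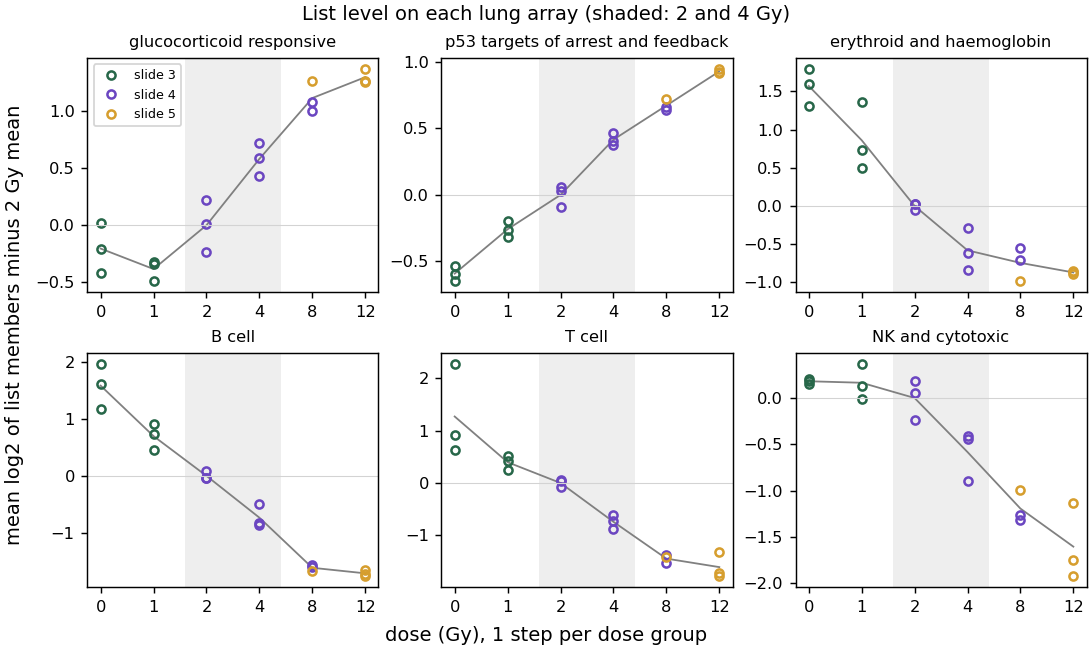
Mean log2 level of the members of 6 gene lists minus the 2 Gy mean (vertical axis) on each lung array, by dose group (horizontal axis, evenly spaced), coloured by slide, with a grey line through the dose means and the 2 and 4 Gy groups shaded. The shaded groups share slide 4 and do not overlap with each other in any of the 6 lists. Their means lie between those of the lower and the higher doses. Single mice overlap other doses in the glucocorticoid responsive, NK and cytotoxic, and erythroid lists.

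Liver arrays carry the same sample numbers and were taken to come from the same mice. The step was examined in both tissues with all 36 mRNA arrays normalized together. No probe (0 of 47373, 0%) had a step that differed between lung and liver at the threshold, with 3701 at an unadjusted p below 0.05 and a smallest adjusted p of 0.124 (limma). This count was 68 with slide as a term, 21 without mouse 3 and 41 without mouse 23. In the liver, 2 Gy mice 3 and 13 were on 1 slide and 2 Gy mouse 23 with all the 4 Gy mice on another, so dose and slide were largely confounded there. Median liver steps were 0.48 for glucocorticoid responsive, 0.47 for arrest and feedback, -0.32 for B cell, -0.15 for T cell, -0.15 for NK and cytotoxic and -0.56 for MHC class II genes. In the liver, Gdf15 changed by 0.71, Cdkn1a by 0.76 and Hbb-bt by -1.89, beside -0.10 for Ms4a4b and 0.12 for Pmaip1. A difference between the tissues was not shown for any of these genes.

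Without the 12 arrays of the other doses as a source of spread, 0 probes were called in the 6 arrays alone, where the smallest adjusted p was 0.32 and 3006 probes had an unadjusted p below 0.05 (limma). On the first slide row alone, 4 Gy mouse 4 against the 2 Gy mice gave list medians of 0.66 for glucocorticoid responsive, 0.35 for arrest and feedback, -0.71 for B cell, -0.88 for T cell and -0.85 for NK and cytotoxic genes, a setting chosen after the data were seen and given with no test. Those for cell death targets and the erythroid list were 0.07 and -0.10. Without 4 Gy mouse 24, in which Alb was high, the medians were 0.61, 0.38, -0.84, -0.72 and -0.68 for the first 5 lists in the same order.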

How the data were processed

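Lung mRNA was measured on 18 single-colour Agilent arrays, 3 mice at each of 6 doses, 48 h after exposure. The authors deposited scanner output of Agilent Feature Extraction, median spot and background intensities that were not normalized between arrays, beside a series table of scaled intensities used here as an alternative. Flags of the scanner software were used as deposited. Signals were background corrected (normexp, offset 0), outlier and control spots dropped, and arrays quantile normalized and taken to log2. Spots of a probe were averaged, and 43979 of 56605 probes well above background on at least 1 lung array were kept. A model with a mean for each dose was fitted with limma 3.58.1 in R 4.3.3, with Benjamini-Hochberg adjustment over all probes. The arrays give no read depth, and the number of mice limits the precision. On simulated data of 41254 probes, 77.3% of changes of 1.5 and 97% of changes of 3 on the log2 scale were called in the 4 against 2 Gy comparison. The simulated noise was independent for each probe, with no slide effect and no mouse effect shared by probes. Changes below 1.5 were not simulated, so these shares check the fit and do not give the power on the real arrays. Symbols come from RefSeq accessions (34566 probes matched), and a list member is read by its brightest probe.

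The genes named were the 6 with the smallest p in each direction among probes with a gene symbol whose doses did not overlap. Named too were 3 of each list with the smallest p, and Cdkn1a, Phlda3, Eda2r, Mdm2 and Ccng1. Further list members were named after their values were seen. Members and lists were chosen with earlier results of these data known. No number pairs mice of different doses. The p-values rest on the spread within dose groups, pooled over the 18 lung arrays with no slide term. That spread holds differences between mice, arrays and, at 8 Gy, slides.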

Additional observations from a re-analysis of the deposited data

How the results depend on the processing

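The count of probes called between 2 and 4 Gy, 0 in the reported fit, became 10 with liver and lung arrays together, 4 with a normexp offset of 50, 5 with the authors' series values, 3 with probes well above background on 3 arrays, 1 with outlier spots kept, 4 with slide as a term and 2 with slide as a random block. It ranged from 0 to 21 when a mouse was left out, with 21 without 4 Gy mouse 4 and 1 without 4 Gy mouse 24. It was 0 with processed signal, scaling to the 75th percentile, no filter, averaging per transcript, the 6 arrays alone, the arrays of the shared slide and adjusted p alone. Over the outer doses, 1512 calls became 807 with an offset of 50, 2802 with processed signal and 2767 with the authors' values. They became 822 with slide as a random block and 1261 to 1841 when a mouse was left out. Without the slide scanned on another day, an alternative chosen after seeing the data, there were 860. That setting loses the whole 12 Gy dose and compares 8 Gy alone with 0 and 1 Gy. The reported split of 433 higher and 1079 lower became 701 and 911 after scaling to the 75th percentile and 987 and 1815 with processed signal. Slide as a term could not be fitted there. The difference between lung and liver, with 0 calls, gave 3 with processed signal, 3 with the authors' values, 68 with slide as a term, and 0 to 41 when a mouse was left out (21 without mouse 3, 41 without mouse 23 and 4 without 4 Gy mouse 4). With the mouse as a replicate block the count was 0 (smallest adjusted p 0.125, limma); no paired fit was possible between doses, which share no mouse numbers. The cause was not tested for any of these.

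Single genes changed sign as follows: Rtkn2 gave -0.0227 per transcript, Krt79 ranged from -0.0504 to 0.584 when a mouse was left out (lowest without 2 Gy mouse 3), and Retn from -0.931 to 0.0204 (highest without 4 Gy mouse 14). On the first slide row alone, an alternative chosen after seeing the data, Rtkn2 gave -0.00299, Txnrd1 -0.012, Cdc45 0.0631, Stfa2l1 -0.0928, Dnah5 -0.238, Retn 0.49 and Hsp90aa1 0.0371. Scaling to the 75th percentile moved the median of all probes from 0.02 to 0.08. List medians ranged from 0.53 to 0.77 for glucocorticoid responsive, 0.27 to 0.43 for arrest and feedback, -1.09 to -0.68 for B cell, -0.96 to -0.48 for T cell and -0.85 to -0.38 for NK and cytotoxic genes.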
